A study of Pan troglodytes with 8 samples.

Results

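Sorted cell populations of chimpanzee cerebral organoids were each sequenced as a library numbered 1 and a library numbered 2, and the replicate 1 libraries were compared with the replicate 2 libraries within each population. The comparison used all 8 libraries of the series, 4 with each number. On the chimpanzee genome (panTro6), 6193 genes of the 21663 averaging 1 CPM or more (counts scaled to a common library total) differed in the same direction in all 4 populations, out of 60583 named genes in the table. The organoids were grown from SandraA, a single line of induced pluripotent stem cells of the chimpanzee (Pan troglodytes), with no genetic change or treatment named in the labels, and were collected at week 8, give or take 3 days. The populations were the radial glia of the apical type (aRG) and of the basal type (bRG), the basal intermediate progenitors (bIP) and the BCL11B-positive neurons (N), separated by fluorescence-activated sorting. Values are always given in that order below. The library names run consecutively within each number, but the labels do not say whether libraries with the same number came from the same culture, sort or preparation. The p-values therefore compare these 2 sets of 4 libraries and no wider condition.

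Cerebral organoids are self-organised cultures of neural tissue made from stem cells. Apical radial glia divide at the ventricular surface, basal radial glia divide away from that surface, intermediate progenitors are their short-lived dividing offspring, and neurons are the end of the lineage. Separately grown organoids are known to vary in regional identity, in metabolic state and in the cells they hold. In bulk libraries such as these, fewer cells of a type and less RNA per cell cannot be told apart.

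Library totals were 24649971 to 33245892 counts on panTro6 and 11635116 to 16447389 on the human genome (hg38). Defining markers were checked against the labels. SOX2, a stem cell transcription factor, was at 958 and 696 CPM in replicate 1 aRG and bRG, and at 850 and 477 CPM in replicate 2. EOMES, which marks intermediate progenitors, was at 1357 CPM in replicate 1 bIP and at 1540 CPM in replicate 2 bIP, and at or below 184 CPM elsewhere. BCL11B was at 488 CPM in replicate 1 N and 590 CPM in replicate 2 N. Between the numbers, the chi-square per gene was 47.3 in bIP and up to 74.5 in aRG, where counting noise alone gives about 1, so no pair was the same library deposited again.

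Genes differed between the numbers in both directions. With edgeR's quasi-likelihood test and population as a block, 510 of 35382 genes (1.44%) passed an adjusted p of 0.05, of which 260 (0.735%) were higher in replicate 1 and 250 (0.707%) were lower. At an unadjusted p below 0.05 there were 4651. The split depended on the scaling and filter: with library totals in place of TMM it was 275 higher and 416 lower, and with DESeq2 876 higher and 1139 lower. The called genes had a median absolute log2 fold change of 0.93, from 0.51 to 4.13, and 509 of the 510 had the direction of the call in all 4 populations. The median over all genes was 0.02. Counted directly, 3178 of the 21663 genes (14.7%) were higher in replicate 1 in all 4 populations and 3015 (13.9%) were lower, together 28.6%. The count of calls depended on the basal radial glia: it was 65 without the bRG pair, 258 without the aRG pair, 376 without the bIP pair and 637 without the N pair. Among the genes described below whose calls held without each single library, CYSRT1, PFKP, PFKFB3, SSTR2, ID2 and HSPA8 lost them when the bRG pair was left out.

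**Figure D1:**
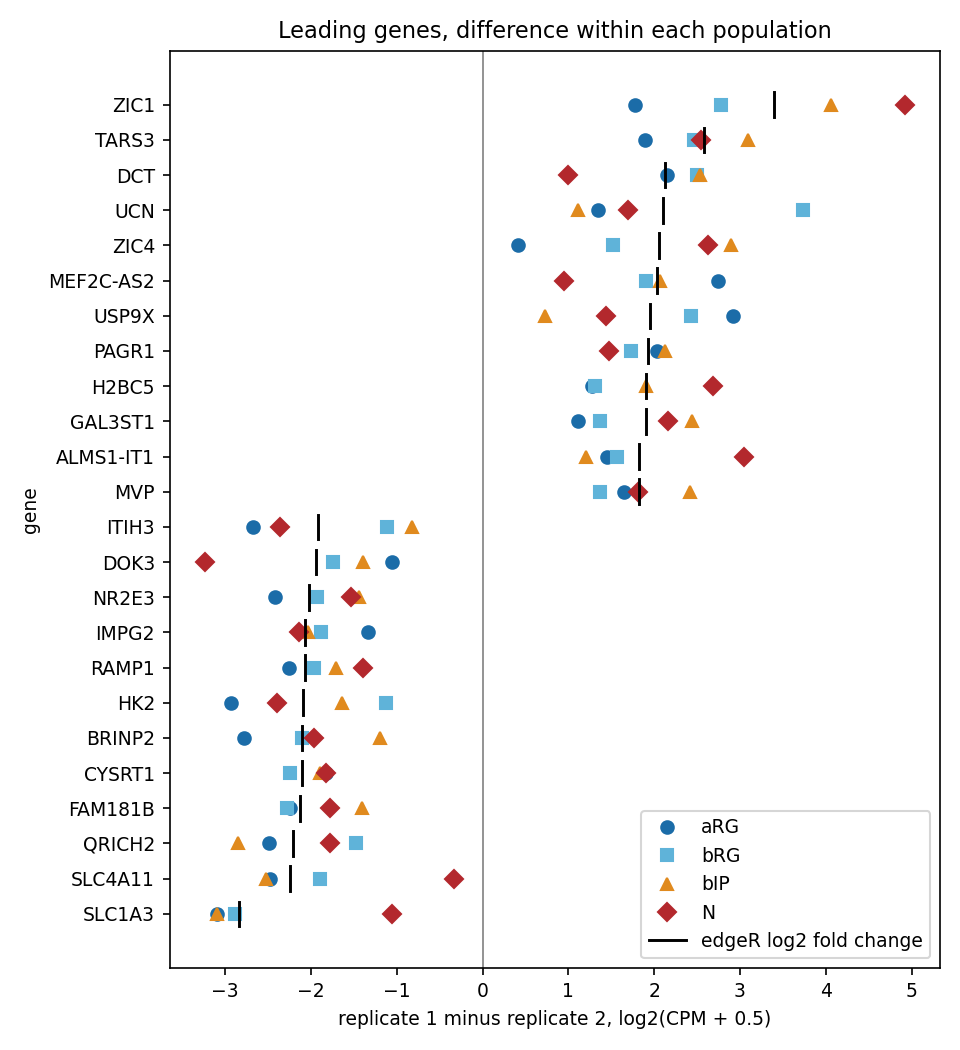
Difference between replicate 1 and replicate 2 in log2(CPM + 0.5), on the horizontal axis, for the 12 called genes that rose most and the 12 that fell most among those averaging at least 10 CPM in the higher number, with a symbol for each population and a black bar at the edgeR log2 fold change. The genes were ordered and chosen by that fold change, so the split between rises and falls was fixed by the choice, and what the plot shows is the spread among populations, from 0.413 to 2.9 in ZIC4 and from 1.37 to 2.42 in MVP.

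Among called genes that averaged 10 CPM or more under the number where they were higher, the largest rise was that of ZIC1, a zinc finger transcription factor of the dorsal midline and hindbrain. ZIC1 was at 168, 166, 253 and 45.9 CPM in the replicate 1 libraries of aRG, bRG, bIP and N, against 48.6, 23.6, 14.6 and 1.04 CPM in the replicate 2 libraries. The replicate 1 library was the higher one in every population, with the N library of replicate 1 just under the aRG library of replicate 2. The log2 fold change was 3.39 ± 0.43 (SE, edgeR, adjusted p = 0.00457), and this call was lost with robust estimation of the spread. ZIC4, which neighbours ZIC1 in the RefSeq annotation of the chimpanzee assembly NHGRI_mPanTro3-v2.0, was at 24.7, 18.0, 17.6 and 7.42 CPM in replicate 1 and 18.4, 5.96, 1.93 and 0.777 CPM in replicate 2. Its log2 fold change of 2.05 ± 0.45 (SE, edgeR, adjusted p = 0.0441) did not keep its call without any 1 of the bRG, bIP or N libraries. Looked at after these values were seen, the family members ZIC2 at 0.54 (edgeR, adjusted p = 0.191) and ZIC5 at 0.21 (adjusted p = 0.823) did not pass.

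Several leading rises concerned genes with roles outside neural patterning. TARS3, which encodes a threonyl-tRNA synthetase, was at 21.4, 41.1, 57.5 and 39.4 CPM in replicate 1 and at 5.42, 7.09, 6.33 and 6.30 CPM in replicate 2. The 2 sets did not overlap, and the log2 fold change was 2.59 ± 0.24 (SE, edgeR, adjusted p = 0.00133). DCT, the melanin synthesis enzyme dopachrome tautomerase, was at 162, 124, 53.4 and 8.51 CPM in replicate 1 and at 36.0, 21.5, 8.85 and 4.01 CPM in replicate 2. DCT rose in every population, with a log2 fold change of 2.13 ± 0.23 (SE, edgeR, adjusted p = 0.00238). DCT overlaps the glypican gene GPC6 in that RefSeq annotation and the protocol does not mark strand, so their reads cannot be told apart where they overlap; GPC6 had a log2 fold change of -0.22 (edgeR, adjusted p = 0.718).

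MVP, the major vault protein, was at 133, 195, 189 and 246 CPM in replicate 1 and at 42.2, 74.9, 35 and 69.5 CPM in replicate 2. No replicate 2 library reached the lowest replicate 1 library, and the log2 fold change was 1.82 ± 0.17 (SE, edgeR, adjusted p = 0.00133). PAGR1, a subunit of histone H3 methyltransferase complexes, overlaps MVP in RefSeq and rose with it, at 16.9, 24.2, 26.5 and 21.7 CPM in replicate 1 against 3.77, 6.96, 5.66 and 7.55 CPM in replicate 2. Reads of these 2 genes may be shared where they overlap. USP9X, a deubiquitinase, rose by 1.95 (edgeR, adjusted p = 0.0162; lost without any 1 of the aRG or bRG libraries). The histone gene H2BC5 rose by 1.90 (edgeR, adjusted p = 0.0147; lost without bRG replicate 1). GAL3ST1, which makes sulfatide, rose by 1.90 (edgeR, adjusted p = 0.0166; lost without either bRG library or bIP replicate 1), and UCN, the peptide urocortin, by 2.10 (edgeR, adjusted p = 0.0471; lost without any 1 of the aRG, bRG or N libraries and with robust estimation).

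The remaining leading rises were noncoding transcripts. MEF2C-AS2 was at 44.9, 47.1, 13.2 and 7.46 CPM in replicate 1 and at 6.31, 12.1, 2.75 and 3.62 CPM in replicate 2. Its log2 fold change was 2.04 ± 0.30 (SE, edgeR, adjusted p = 0.00649; lost without bRG replicate 1), and, since its name marks it as antisense and strand was not kept, reads of the transcription factor gene MEF2C may be among its counts. MEF2C itself, looked at after its values were seen, was at 0.81 (edgeR, adjusted p = 0.0883). ALMS1-IT1, named for an intron of ALMS1, rose by 1.83 (edgeR, adjusted p = 0.00826) while ALMS1 was at -0.49 (adjusted p = 0.101).

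On the same terms the largest fall was that of SLC1A3, the glial glutamate transporter GLAST that marks radial glia. SLC1A3 was at 27.1, 30.2, 4.82 and 0.773 CPM in replicate 1 and at 236, 226, 44.8 and 2.16 CPM in replicate 2. Every population had less in replicate 1, although the radial glia of either number stayed well above the neurons of the same number. The log2 fold change was -2.84 ± 0.24 (SE, edgeR, adjusted p = 0.00109), and it held without each library in turn, between -3.08 and -2.71.

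HK2, the hexokinase that commits glucose to glycolysis, was at 7.12, 12.6, 9.83 and 3.13 CPM in replicate 1 and at 57.7, 27.9, 31.6 and 18.7 CPM in replicate 2. The 2 sets of HK2 values did not overlap, and the log2 fold change was -2.10 ± 0.30 (SE, edgeR, adjusted p = 0.00631). RAMP1, a partner protein of the receptor for calcitonin gene-related peptide, was at 14.6, 9.70, 1.48 and 0.773 CPM in replicate 1 and at 71.6, 39.1, 5.98 and 2.85 CPM in replicate 2. RAMP1 was highest in the radial glia of both numbers and fell by 2.07 on the log2 scale (edgeR, adjusted p = 0.00251). BRINP2, a neural protein induced by bone morphogenetic protein and retinoic acid, was at 1.02, 5.97, 11 and 41.3 CPM in replicate 1 and at 9.96, 27.3, 26.1 and 162 CPM in replicate 2. BRINP2 was highest in neurons under both numbers and fell by 2.10 (edgeR, adjusted p = 0.00457).

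QRICH2, known from sperm tail formation in human and mouse, was at 4.29, 14.8, 4.04 and 22.4 CPM in replicate 1 and at 26.3, 41.8, 32.3 and 78.2 CPM in replicate 2, and fell by 2.21 (edgeR, adjusted p = 0.00343). CYSRT1 fell by 2.11 (edgeR, adjusted p = 0.00488). FAM181B fell by 2.13 (edgeR, adjusted p = 0.0063; lost without bRG replicate 2). SLC4A11, a membrane transporter, fell by 2.24 (edgeR, adjusted p = 0.0156; lost without any 1 of the aRG, bRG or bIP libraries). IMPG2, an interphotoreceptor matrix proteoglycan, fell by 2.06 (edgeR, adjusted p = 0.013; lost without either bRG library), and NR2E3, a nuclear receptor, by 2.02 (edgeR, adjusted p = 0.0144; lost without any 1 of the aRG or bRG libraries). DOK3, an adaptor protein, fell by 1.95 (edgeR, adjusted p = 0.0198; lost without either bRG library) and ITIH3, a plasma protease inhibitor chain that neighbours the called gene ITIH4, by 1.92 (edgeR, adjusted p = 0.0318; lost without any 1 of the aRG, bRG or N libraries).

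**Figure D2:**
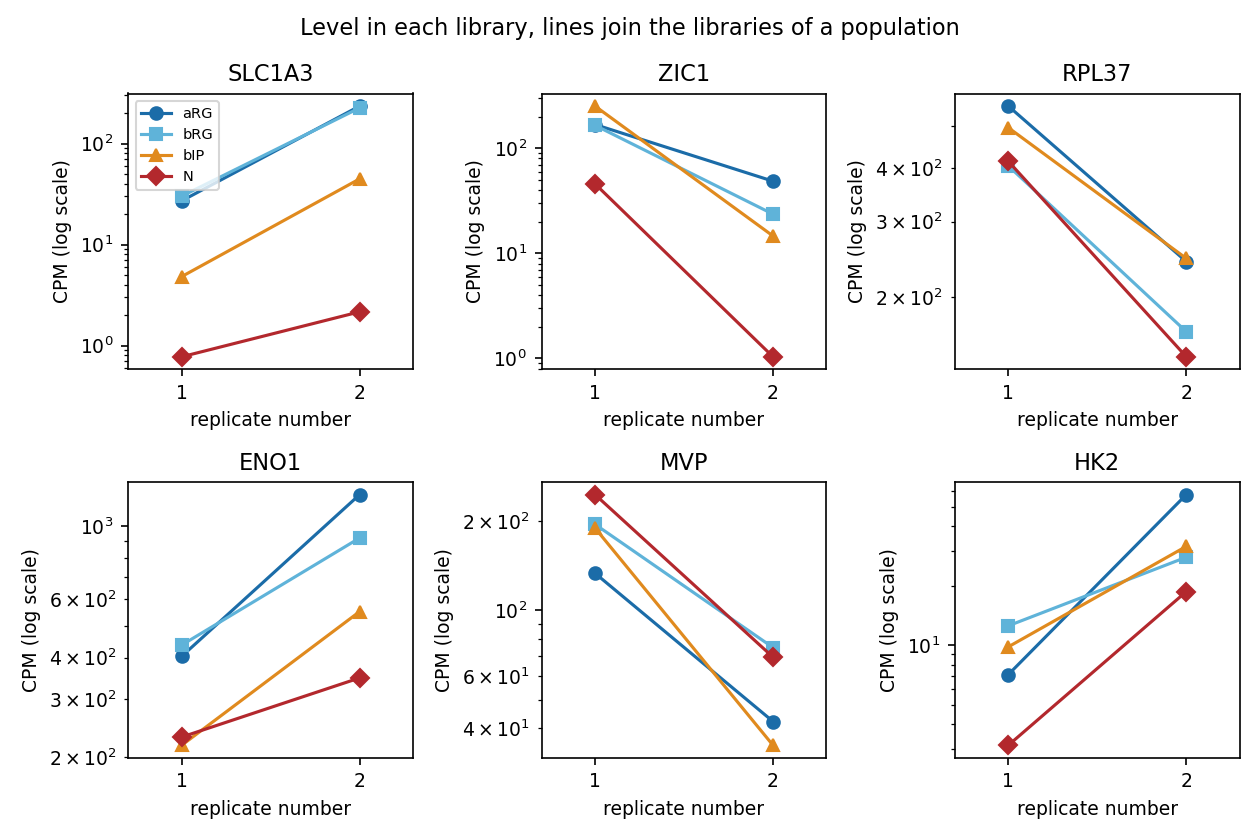
Level in CPM on a log axis against the replicate number, replicate 1 on the left, for 6 genes, with a line joining the 2 libraries of each population. SLC1A3, ENO1 and HK2 are lower in replicate 1 and ZIC1, RPL37 and MVP higher in replicate 1 in each of the 4 populations.

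Cytosolic ribosomal protein genes, which encode the protein components of the large and small ribosomal subunits, were higher in replicate 1. Of 79 tested genes, 52 rose and 0 fell, against 0.735% and 0.707% of all genes, and 70 of the 78 with at least 1 CPM were higher in replicate 1 in all 4 populations, against 14.7% of all genes. The median log2 fold change was 0.73, against 0.02 for all genes, and the called members lay between 0.54 and 1.25. Both subunits took part, with 29 of 48 large subunit genes and 23 of 31 small subunit genes called. The share of all counts in these genes was 3.93%, 3.20%, 3.08% and 2.42% in replicate 1 and 2.76%, 2.00%, 2.13% and 1.4% in replicate 2. It was the larger share in every population, and within each number it was lowest in neurons.

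RPL37 was at 557, 404, 496 and 414 CPM in replicate 1 and at 242, 166, 246 and 146 CPM in replicate 2, with no overlap between the numbers. Its log2 fold change was 1.25 ± 0.13 (SE, edgeR, adjusted p = 0.00133). RPL34 rose by 1.11 (edgeR, adjusted p = 0.0018), RPL39 by 1.24 (adjusted p = 0.00405) and RPS7 by 1.00 (adjusted p = 0.00422), and none of these 4 calls was lost without any single library. Ribosomal protein genes share sequence with many processed pseudogenes, so the count of a single member is uncertain. DESeq2 called 62 higher and 0 lower, where over all genes it called 2.48% higher and 3.22% lower, together 5.69%. The number called fell to 8 without the bRG pair, with a median of 0.71, and stayed between 41 and 49 without 1 of the other 3 pairs. Of 72 mitochondrial ribosomal protein genes edgeR called 0 in either direction. At an unadjusted p below 0.05 in edgeR there were 12, against 13.1% of all genes, and DESeq2 called 3, against 5.69%.

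Other parts of the translation machinery were looked at after the ribosomal values were seen. TPT1, a growth-related protein, rose by 0.64 (edgeR, adjusted p = 0.0394) and FAU, a precursor of a small subunit protein, by 0.60 (adjusted p = 0.0416), but each call was lost without any 1 of the 8 libraries. NACA, a subunit of the nascent polypeptide complex, rose by 0.72 (edgeR, adjusted p = 0.0152; lost without any 1 of the bRG or bIP libraries) and the initiation factor subunit EIF3E by 0.77 (adjusted p = 0.0235; lost without any 1 of the aRG or bRG libraries or N replicate 1). The other 6 genes looked at did not pass: EEF1A1 was at 0.36 (edgeR, adjusted p = 0.15), EEF1B2 at 0.38 (0.21), EEF2 at 0.22 (0.565), EIF3F at 0.32 (0.254), EIF4B at 0.47 (0.106) and PABPC1 at 0.50 (0.0658).

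Glycolytic enzymes moved the other way. Of 17 tested genes, 8 fell and 0 rose, against 0.707% and 0.735% of all genes. In all 4 populations 10 of the 17 were lower in replicate 1, against 13.9% of all genes. The median log2 fold change was -0.76 over the list. By population the median difference was -1.36 in aRG, -0.83 in bRG, -0.54 in bIP and -0.19 in N. ENO1, the enolase of the lower pathway, was at 404, 436, 218 and 230 CPM in replicate 1 and at 1243, 919, 551 and 348 CPM in replicate 2. The ENO1 difference was largest in aRG and smallest in N, and the log2 fold change was -1.16 ± 0.15 (SE, edgeR, adjusted p = 0.0048).

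PFKP, a phosphofructokinase isoform of the committed step, was at 44.2, 48.5, 69.5 and 116 CPM in replicate 1 and at 114, 105, 113 and 228 CPM in replicate 2, and fell by 1.04 (edgeR, adjusted p = 0.0063). LDHA, which turns pyruvate into lactate, was at 120, 114, 112 and 257 CPM in replicate 1 and at 426, 324, 250 and 354 CPM in replicate 2, and fell by 1.24 (edgeR, adjusted p = 0.00817; lost without bRG replicate 1). The others called were HK2, PGAM1 (-0.96; lost without either bRG library), PKM (-0.82) and GPI (-0.76), both lost without any 1 of the aRG or bRG libraries, and PGK1 (-0.76; lost without any 1 of the aRG, bRG or bIP libraries). GAPDH was at -0.85 with an edgeR adjusted p of 0.0542, and HK1 at -0.49 with 0.0875. The number called was 5 without the aRG pair, 2 without the bRG pair, 7 without the bIP pair and 10 without the N pair, with list medians between -0.94 and -0.57.

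Genes of the hypoxia response, which cells switch on through HIF transcription factors when oxygen is low, included 5 of 28 that fell and 0 that rose, against 0.707% and 0.735% of all genes, with a list median of -0.40 that was -0.23 without the aRG pair. By population the median difference was -1.01 in aRG, -0.22 in bRG, -0.47 in bIP and 0.05 in N. PFKFB3, which makes the activator of phosphofructokinase, was at 29.7, 47.0, 62.5 and 88.3 CPM in replicate 1 and at 65.0, 89.8, 113 and 165 CPM in replicate 2. PFKFB3 fell by close to the same amount in each population (log2 fold change -0.95 ± 0.14, SE, edgeR, adjusted p = 0.00658). Its relative PFKFB4 fell by 1.47 (edgeR, adjusted p = 0.00682; lost without bRG replicate 2), the carbonic anhydrase CA9 by 1.80 (adjusted p = 0.015; lost without any 1 of the aRG or bRG libraries) and the mitophagy receptor BNIP3 by 1.00 (adjusted p = 0.021; lost without any 1 of the aRG or bRG libraries or bIP replicate 1).

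SLC2A1, the glucose transporter GLUT1, was at 23.6, 34.9, 35.4 and 15.5 CPM in replicate 1 and at 200, 134, 82.6 and 17.4 CPM in replicate 2. The difference was large in aRG and bRG and small in N, with a log2 fold change of -1.61 (edgeR, adjusted p = 0.0416; lost without any 1 of the aRG, bRG or bIP libraries and with robust estimation). VEGFA, another hypoxia target, was at 0.12 (edgeR, adjusted p = 0.903), lower in replicate 1 in aRG and higher in N. The number of hypoxia genes called was 2 without the aRG pair, 0 without the bRG pair, 3 without the bIP pair and 7 without the N pair. Of 39 nuclear-encoded respiratory chain genes 1 rose and 1 fell (2.56% each), against 0.735% and 0.707% of all genes. NDUFB4 rose (0.76, edgeR, adjusted p = 0.0346, lost without any 1 of the bRG, bIP or N libraries). UQCRC1 fell (-0.70, edgeR, adjusted p = 0.0416, lost without any 1 of the aRG, bRG or bIP libraries).

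A few sterol and fatty acid synthesis genes rose. Of 23 cholesterol synthesis genes 2 rose and 0 fell, against 0.735% and 0.707% of all genes; 0 rose without the bRG pair or the bIP pair, and 1 fell without the bIP pair or the N pair, with DESeq2 and on hg38. The list had a median difference of -0.30 in aRG, -0.11 in bRG, 0.47 in bIP and 0.54 in N. INSIG1, a feedback regulator of the sterol sensor, was at 36.0, 44.8, 76.2 and 64.4 CPM in replicate 1 and at 19.3, 32.5, 34.7 and 29.0 CPM in replicate 2 (log2 fold change 0.91, edgeR, adjusted p = 0.0244; lost without any single library other than N replicate 2). IDI1, an isoprenoid enzyme, rose by 0.69 (edgeR, adjusted p = 0.0253; lost without any 1 of the bRG or bIP libraries or N replicate 1). Looked at after values were seen, SREBF1, the transcription factor that switches on fatty acid synthesis, was at 122, 124, 228 and 160 CPM in replicate 1 and at 62.7, 60.5, 69.9 and 39.8 CPM in replicate 2. SREBF1 rose by 1.42 (edgeR, adjusted p = 0.00457), its target FASN, the fatty acid synthase, by 1.15 (adjusted p = 0.02; lost without either bIP library), and the elongase ELOVL6 by 0.85 (adjusted p = 0.0479; lost without any 1 of the bRG, bIP or N libraries and with DESeq2's size factors).

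**Figure D3:**
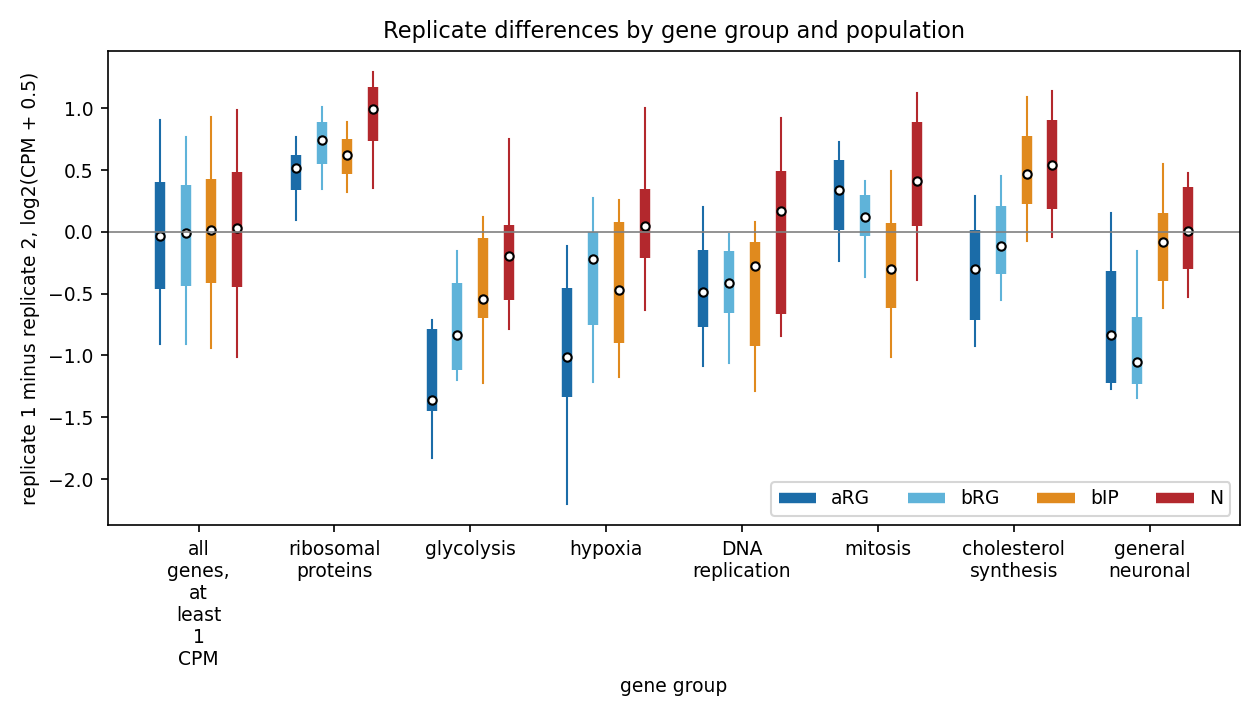
Difference between replicate 1 and replicate 2 in log2(CPM + 0.5) by gene group and population. The white point is the median over the genes of the group, the thick bar the middle 50% and the thin line the 10th to 90th percentile of genes; ribosomal protein medians lie between 0.51 and 0.99 and glycolysis medians between -1.36 and -0.19, beside -0.03 to 0.03 for all genes.

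Among cell cycle genes, some of those for DNA synthesis fell. Of 25 DNA replication genes 3 fell and 0 rose, against 0.707% and 0.735% of all genes, and 9 were lower in replicate 1 in all 4 populations, against 13.9% of all genes. FEN1, the flap endonuclease of lagging strand synthesis, was at 25.3, 22.8, 14.2 and 9.05 CPM in replicate 1 and at 56.4, 51.3, 40.4 and 14.7 CPM in replicate 2 (log2 fold change -1.14, edgeR, adjusted p = 0.0156; lost without any 1 of the aRG or bRG libraries or bIP replicate 2). POLE, the leading strand polymerase, fell by 0.75 (edgeR, adjusted p = 0.0233; lost without any 1 of the aRG or bRG libraries or bIP replicate 1) and the clamp loader subunit RFC2 by 0.86 (adjusted p = 0.0269; lost without any 1 of the aRG, bRG or bIP libraries). The list count was 0 without the aRG pair and 0 without the bRG pair. Of 26 mitosis genes edgeR called 0, and the list median was 0.18. At an unadjusted p below 0.05 in edgeR there were 7, against 13.1% of all genes, and DESeq2 called 1, against 5.69%.

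Calls among cell identity genes went in both directions. Of 18 radial glia markers, SOX9 rose (5.56%) and SLC1A3 and FABP7 fell (11.1%), against 0.735% and 0.707% of all genes. SOX9, a glial and stem cell transcription factor, was at 332, 273, 92.6 and 32.8 CPM in replicate 1 and at 219, 141, 51.5 and 16.8 CPM in replicate 2 (log2 fold change 0.84, edgeR, adjusted p = 0.00967; lost without either bRG library). FABP7, a fatty acid binding protein of radial glia, was at 158, 132, 48.5 and 17.7 CPM in replicate 1 and at 348, 246, 114 and 19 CPM in replicate 2 (log2 fold change -0.85, edgeR, adjusted p = 0.0358; lost without any 1 of the aRG, bRG or bIP libraries). Both markers kept their higher level in radial glia under each number. The somatostatin receptor SSTR2 was the 1 called member of 16 intermediate progenitor markers (6.25%), against 0.707% of all genes called lower. SSTR2 was at 36.0, 55.3, 528 and 257 CPM in replicate 1 and at 73.1, 134, 999 and 402 CPM in replicate 2 (log2 fold change -0.96, edgeR, adjusted p = 0.00545).

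Of 23 general neuronal genes 3 fell and 1 rose, against 0.707% and 0.735% of all genes; 0 fell without the aRG pair or the bRG pair. The median difference was -0.84 in aRG, -1.05 in bRG, -0.08 in bIP and 0.01 in N. The growth cone protein GAP43 was at 71.3, 118, 168 and 584 CPM in replicate 1 and at 175, 288, 242 and 737 CPM in replicate 2. GAP43 fell by 0.86 (edgeR, adjusted p = 0.0272), the intermediate filament INA by 0.89 (adjusted p = 0.0231) and the transcription factor MYT1L by 0.95 (adjusted p = 0.0387). GAP43 and INA lost their calls without any 1 of the aRG or bRG libraries, and MYT1L also without either bIP library. The summed level of the neuronal list was 1660 and 2460 CPM in replicate 1 aRG and bRG and 2120 and 4120 CPM in replicate 2 aRG and bRG; the part of neuronal RNA in the radial glia gates in these differences was not tested. SCG2, a secretory granule protein, went the other way, at 96.0, 56.1, 79.7 and 31.7 CPM in replicate 1 and at 29.2, 28.3, 40.2 and 7.47 CPM in replicate 2 (log2 fold change 1.43, edgeR, adjusted p = 0.00631).

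Called lower were 6.25% of 16 deep-layer neuron genes, 9.09% of 11 Cajal-Retzius genes and 7.14% of 14 dorsal telencephalon genes, against 0.707% of all genes. Each was 1 gene, and 0 rose. Among deep-layer neuron genes the vesicular glutamate transporter SLC17A7 fell (-0.90, edgeR, adjusted p = 0.0491, lost without any 1 of the aRG or bRG libraries and with robust estimation). Among Cajal-Retzius genes the transcription factor EBF2 fell (-1.21, edgeR, adjusted p = 0.0317, lost without any 1 of the bRG or bIP libraries or N replicate 1). Of 14 dorsal telencephalon genes only NR2F1, a caudal patterning factor, was called, at 183, 138, 124 and 163 CPM in replicate 1 and at 332, 284, 323 and 192 CPM in replicate 2 (log2 fold change -0.88, edgeR, adjusted p = 0.0233; lost without any 1 of the aRG, bRG or bIP libraries). The list median was 0.50, and EMX2, a cortical patterning factor, was at 1.00 (edgeR, adjusted p = 0.0529) without passing.

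Summed markers of mesenchyme and of choroid plexus, the secretory epithelium of the ventricles, were highest in 1 library. The summed level of 20 mesenchymal, vascular and immune markers was 462, 352, 198 and 120 CPM in replicate 1 and 2140, 412, 191 and 97.3 CPM in replicate 2, and the immune marker AIF1 was at 0 in every library on panTro6, although it had counts in every library on hg38. For 14 choroid plexus markers the sums were 1200, 287, 204 and 84.3 CPM in replicate 1 and 3720, 454, 413 and 96.1 CPM in replicate 2. In both lists aRG replicate 2 had the highest sum. The median difference in aRG was -1.54 over the 16 mesenchymal markers of at least 1 CPM, but -0.13 over the 14 choroid plexus markers. Of these 14, 4 were higher and 1 was lower in replicate 1 in all 4 populations, so the typical choroid plexus marker did not follow the sum. Of 19 mesenchymal markers tested, 1 rose (5.26%) and 2 fell (10.5%), against 0.735% and 0.707% of all genes. In the mesenchymal list COL3A1 fell (-2.01, edgeR, adjusted p = 0.0441; lost without any 1 of the aRG, bRG or bIP libraries, with DESeq2 and with robust estimation; in N it was at 1.04 CPM in replicate 1 and 0.604 CPM in replicate 2, the other way) and DCN fell (-1.84, adjusted p = 0.0114; lost without any 1 of the aRG or bRG libraries), while the endothelial cadherin CDH5 rose (1.59, adjusted p = 0.0183; lost without any 1 of the aRG libraries, bRG replicate 1 or bIP replicate 1). Of the choroid plexus markers edgeR called 0 of 14, with 5 at an unadjusted p below 0.05 and 3 called by DESeq2. Over all genes the latter 2 shares were 13.1% and 5.69%. COL11A1, a collagen of the matrix list, fell by 1.12 (edgeR, adjusted p = 0.00457), at 156, 134, 46.8 and 2.86 CPM in replicate 1 and 320, 244, 109 and 7.77 CPM in replicate 2.

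Signalling lists had at most 2 calls each, and the hedgehog and FGF lists had 0. Called higher were 5.26% of the Notch list and 4.76% of the 21 Wnt genes, against 0.735% of all genes. Called lower were 5.26% of the Notch list and 5.26% of the 19 BMP genes, against 0.707% of all genes. In the Notch list of 19 genes the effector HEY2 rose (1.44, edgeR, adjusted p = 0.00735; lost without either bRG library) and the ligand DLL3 fell (-0.86, adjusted p = 0.0189; lost without any 1 of the bRG or bIP libraries). HEY2 was at 114, 118, 54.8 and 2.82 CPM in replicate 1 and at 54.5, 35.1, 13.5 and 1.73 CPM in replicate 2. ID2, an inhibitor of bHLH factors and a BMP target, was at 48.3, 59.0, 51.4 and 94.3 CPM in replicate 1 and at 79.3, 140, 101 and 375 CPM in replicate 2 (log2 fold change -1.23, edgeR, adjusted p = 0.00826). The Wnt feedback gene NKD1 rose by 1.21 (edgeR, adjusted p = 0.0439), but its call was lost without any 1 of the 8 libraries.

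In the stress lists, JUND (0.97, edgeR, adjusted p = 0.0166) and ZFP36 (1.39, adjusted p = 0.0168) were the 2 called of 36 immediate early genes, both lost without any 1 of the aRG or bRG libraries. They were 5.56% of that list, against 0.735% of all genes called higher. The chaperone HSPA8 was at 354, 365, 388 and 687 CPM in replicate 1 and at 891, 716, 630 and 1072 CPM in replicate 2, and fell by 0.91 (edgeR, adjusted p = 0.00649). Its inducible relative HSPA1A rose by 1.60 (edgeR, adjusted p = 0.0356; lost without any 1 of the bRG, bIP or N libraries), and these were the 2 called of 20 heat shock genes. Each heat shock call was 5% of that list, against 0.735% of all genes called higher and 0.707% called lower. HSPA1B, also on that list, was at 0.65 (edgeR, adjusted p = 0.149), and on hg38 HSPA1A was at 0.95. Of the 39 lists with a tested gene, 16 had no edgeR call. They held 261 genes, of which 51 were at an unadjusted p below 0.05, against 13.1% of all genes, and DESeq2 called 20, against 5.69% of all genes; among these lists were the integrated stress response, the unfolded protein response, p53 targets, the interferon response, pluripotency and the retina and neural crest markers.

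Some nuclear and noncoding transcripts were higher in replicate 1, but the list of nuclear noncoding RNAs as a whole was split. Its median log2 fold change was 0.07, against 0.02 for all genes. In all 4 populations 3 of its 11 genes were higher and 2 lower, against 14.7% and 13.9% of all genes. MALAT1, an abundant nuclear RNA, rose by 0.66 (edgeR, adjusted p = 0.00608). KCNQ1OT1, an imprinted antisense transcript, was at 512, 657, 1472 and 1272 CPM in replicate 1 and at 270, 348, 800 and 584 CPM in replicate 2. KCNQ1OT1 rose by 0.96 ± 0.11 (SE, edgeR, adjusted p = 0.00251), and KCNQ1, its host, was at 0.89 (adjusted p = 0.659). These 2 were the called members of 11 nuclear noncoding RNAs (18.2%, against 0.735% of all genes called higher), and MIAT was at -0.28 (edgeR, adjusted p = 0.248). Of 13 host genes of small nucleolar RNAs, many of which like ribosomal protein genes carry a terminal oligopyrimidine start, 10 were higher in replicate 1 in all 4 populations, against 14.7% of all genes, and 1 passed the test, against 0.735% of all genes called higher. That gene was SNHG6 (0.91, edgeR, adjusted p = 0.0231; lost without any 1 of the aRG or bRG libraries). Of 52 histone genes 2 rose (3.85%) and 0 fell, against 0.735% and 0.707% of all genes. These were H2BC5, above, and H1-10, a linker histone, at 113, 113, 141 and 181 CPM in replicate 1 and at 42.5, 35.6, 52.9 and 34.0 CPM in replicate 2 (log2 fold change 1.72 ± 0.18, SE, edgeR, adjusted p = 0.0018).

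By kind of gene, the calls were mostly protein-coding. Of the 510, 428 (83.9%) had a symbol that is also in the hg38 table, against 45.3% of the genes tested. Clone-based names, mostly unnamed noncoding loci, made up 32 calls (6.27%), against 30.7% of the genes tested. However, all 510 calls averaged at least 1 CPM, as did only 21663 of the 35382 genes tested. Of those 21663, 13801 had a symbol in the hg38 table and 4289 a clone name, so both contrasts are smaller at that level. There were 8 antisense-named transcripts (6 lower), which were 1.57% of the calls and 2.98% of the genes tested. The 3 long intergenic noncoding RNAs (all lower) were 0.588% of the calls and 4.23% of the genes tested, and 1 call was a microRNA host gene. RefSeq labelled 442 of the calls as protein-coding, 224 higher and 218 lower of 16112 tested. Of 508 ZNF zinc finger genes 7 were called, which is close to the 1.44% of all genes.

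A large difference in every population was rare. A difference of at least 1 on the log2(CPM + 0.5) scale in all 4 populations was found for 51 genes higher (0.235% of the 21663) and 50 lower (0.231%) in replicate 1, together 0.466%. edgeR called 65 of these 101. By name, 50 (49.5%) were symbols in the hg38 table and 32 (31.7%) were clone names. Of the 21663 genes they were drawn from, 13801 were symbols in the hg38 table and 4289 were clone names. Clone names thus took a larger share of the 101 than of those genes, and symbols in the hg38 table a smaller one. These shares were not matched for level. Most of the clone names among the 101 averaged below 10 CPM, and the highest, AC106028.3, averaged 20.9 CPM. With a mean of at least 5 CPM required, the counts fell to 29 higher and 29 lower. Whether the contrast by name holds among genes of like level was not tested. The rest of the 101 were 3 antisense, 2 long intergenic noncoding RNAs and 14 others. Looked at after their values were seen, STK11, a kinase upstream of AMPK, was at 64.8, 80.5, 80.7 and 74.0 CPM in replicate 1 and at 21.0, 22.5, 30.6 and 18.3 CPM in replicate 2. STK11 was nearly level across populations within each number and rose by 1.72 ± 0.17 (SE, edgeR, adjusted p = 0.00133). QTRT1, a tRNA modification enzyme, fell by 1.36 (edgeR, adjusted p = 0.00133).

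The 4 within-population differences resembled each other across genes to a limited degree. Over the 21663 genes, which share libraries of the same depth range, Pearson's r between the differences of 2 populations ran from 0.145 (aRG and N) to 0.316 (aRG and bRG) over the 6 pairs of populations. Over the 11200 genes with at least 10 CPM it ran from 0.304 to 0.607. These are descriptions across genes, which are not independent. Of the 510 calls, 250 (49%) were called between populations in the same model, against 12.4% of all genes. The 2 shares were not matched for level: all 510 calls averaged at least 1 CPM, as did only 21663 of the 35382 genes tested. Both tests also use the same counts and estimates of spread, so the overlap is no independent result.

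**Figure D4:**
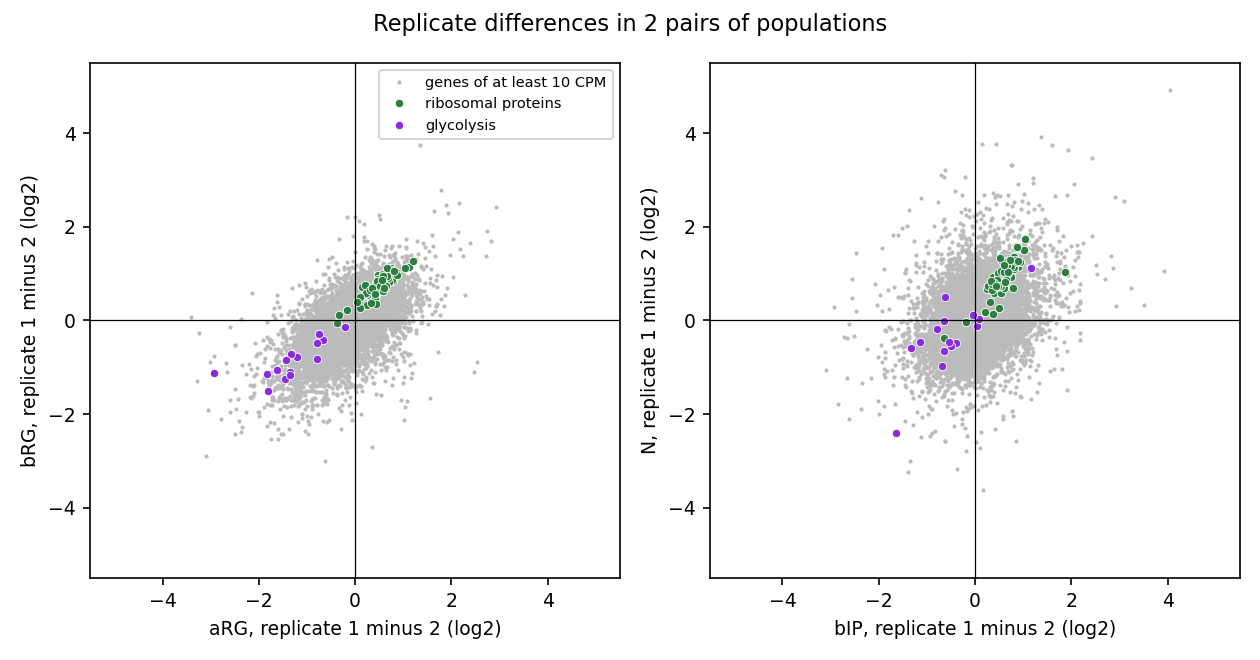
Difference between replicate 1 and replicate 2 in log2(CPM + 0.5) for each gene of at least 10 CPM, bRG against aRG on the left and N against bIP on the right, with ribosomal protein genes in green and glycolysis genes in purple. Pearson's r over the 11200 genes was 0.607 for aRG and bRG and 0.328 for bIP and N; the ribosomal proteins lie mostly in the upper right and the glycolysis genes mostly in the lower left, the glycolysis genes more so in the radial glia panel.

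Whether the replicate difference itself depended on cell class was tested as an interaction between the number and radial glia (aRG, bRG) against committed cells (bIP, N). edgeR called 38 of 35382 genes (0.107%), of which 37 had a lower replicate 1 to replicate 2 ratio in radial glia than in committed cells, and 22 were lower in replicate 1 in both radial glia populations and higher in both committed ones. The count was 54 to 638 without 1 library, 212 with DESeq2, 293 with no low-count filter and 20 with library totals. STRA6, the membrane receptor for vitamin A uptake, was at 14.0 and 11.9 CPM in replicate 1 aRG and bRG against 76.8 and 54.3 CPM in replicate 2, but at 116 and 30.7 CPM in replicate 1 bIP and N against 52.3 and 7.64 CPM in replicate 2. The direction turned between the classes, with an interaction of -3.88 ± 0.36 (SE, edgeR, adjusted p = 0.000279). SULF2, a heparan sulfate editing enzyme, was at 23.7 and 26.1 CPM in replicate 1 aRG and bRG against 27.9 and 26.9 CPM in replicate 2, and at 218 and 100 CPM in replicate 1 bIP and N against 56.5 and 7.51 CPM in replicate 2. SULF2 thus differed by number mainly in committed cells (interaction -2.95 ± 0.44, SE, edgeR, adjusted p = 0.0161).

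PLA2G3, a secreted phospholipase (-4.35, edgeR, adjusted p = 0.0161), and KIAA1755 (-3.55, adjusted p = 0.0224) were the other 2 named by size of interaction among genes with a mean of at least 10 CPM over the 8 libraries; TMEM51 (-5.36) and TPPP3 (-5.18), just under that mean, had larger ones. Named after their values were seen, the neuronal genes NEUROD6, TBR1, SYT4, GRIA2 and STMN2 were among the 37, with interactions from -1.52 to -1.27. TBR1 and STMN2 lost this call without either aRG library and GRIA2 without bRG replicate 1, and these 3 also lost it with library totals in place of TMM. ZIC1 was also among them (-2.34, edgeR, adjusted p = 0.039; lost with library totals in place of TMM). On hg38, 3 genes passed the interaction test; STRA6, EGR1 and SEZ6 were those, and PLA2G3 (adjusted p = 0.0979 with edgeR), SULF2 (0.0846) and KIAA1755 (0.0979) were not. EGR1, an immediate early gene, was the 1 gene with a positive interaction, at 263 and 139 CPM in replicate 1 aRG and bRG against 59.1 and 37.5 CPM in replicate 2, and at 5.28 and 5.61 CPM in replicate 1 bIP and N against 10.7 and 6.99 CPM in replicate 2 (2.70, edgeR, adjusted p = 0.0055).

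The same reads counted on hg38 are no independent check. The directions matched. edgeR called 843 of 16353 genes (5.16%), 413 higher (2.53%) and 430 lower (2.63%) in replicate 1. Of the 510 panTro6 calls 428 were tested on hg38, all 428 had the same sign and 424 (99.1%) were called. Of the 814 hg38 calls that were tested on panTro6, 424 (52.1%) were called there. In all 4 populations 2359 of 15037 genes (15.7%) were higher and 2292 (15.2%) lower, and a difference of at least 1 in all 4 was found for 22 (0.146%) and 34 (0.226%).

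On hg38 59 of 75 ribosomal protein genes were called higher and 0 lower, with a median of 0.72, and 9 of 16 glycolysis genes were called lower and 0 higher, with a median of -0.73. ZIC1 was at 3.32 (edgeR, adjusted p = 0.00322), SLC1A3 at -2.74 (adjusted p = 0.00159) and MVP at 1.80 (adjusted p = 0.00159), close to their panTro6 values. Larger gaps were found for GTF2I (0.56 on hg38 and 1.27 on panTro6), HSPA1A (0.95 and 1.60), PAGR1 (1.32 and 1.93), ITIH4 (-1.34 and -2.07) and SUSD2 (-2.98 and -3.49), the 5 of the 428 that differed by over 0.4 between genomes. They were chosen after their values were seen, and ITIH4 passed on panTro6 with an edgeR adjusted p of 0.0488 but not on hg38.

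**Figure D5:**
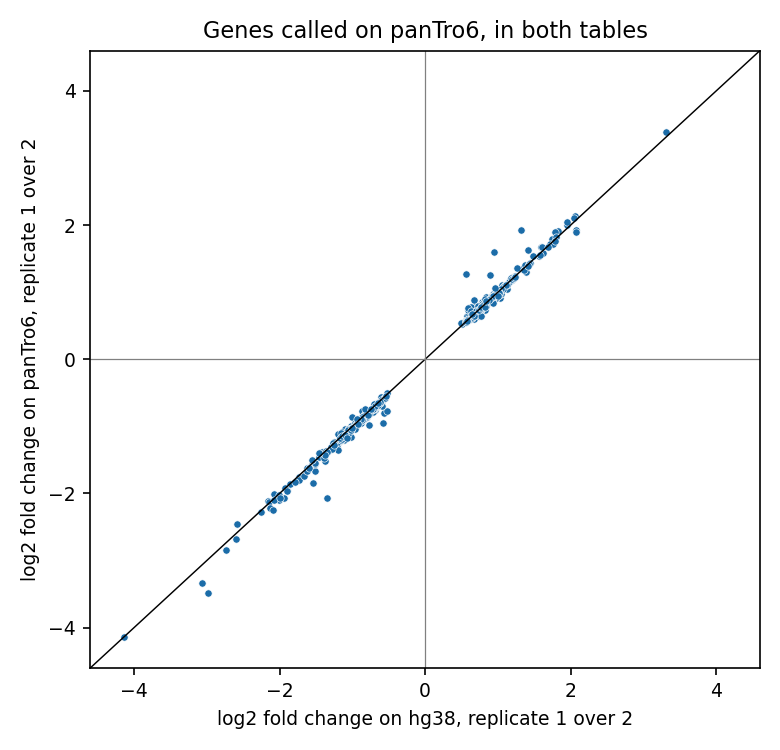
Log2 fold change of replicate 1 over replicate 2 on panTro6 against that on hg38 for the 428 genes called on panTro6 and tested in both tables, with the line of equality. All 428 have the same sign on both genomes, and the 5 farthest from the line are GTF2I, HSPA1A, PAGR1, ITIH4 and SUSD2.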

How the data were processed

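As deposited, the authors' tables hold raw read counts (whole numbers) for each gene symbol, 1 on panTro6 and 1 on hg38, with the same 8 libraries. Per the submitters' processing notes the authors used STAR; not given in the sources used here are its version, the annotation, the counter and the strand setting. Per the labels' protocols, RNA of 10000 cells per library was amplified with 12 to 17 PCR cycles, the number being set for each library, and strand was not kept. No molecular identifiers are named, so counts include PCR copies. Counts of 2 (21576 values) outnumbered counts of 1 (16443) on panTro6, and an alternative halved the counts. A row with no gene name (at most 0.00771% of counts) was left out. Mitochondrially encoded genes were at 0 in every library.

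edgeR 4.0.16 (limma 3.58.1, R 4.3.3) fitted population plus number with TMM scaling and the quasi-likelihood test, which leaves 3 residual degrees of freedom, over 35382 genes kept by filterByExpr; p-values were adjusted by Benjamini-Hochberg at 0.05. The interaction fit leaves 2. Alternatives used DESeq2 1.42.0, other scalings and filters, and the fit without the population block. Differences within a population were taken on log2(CPM + 0.5), for genes with a mean of at least 1 CPM and with no test, since there is 1 library each; summaries used Python 3.11.15 and pandas 2.3.3, and plots matplotlib 3.10.9. Fits were tried on counts simulated with the same spread for every gene, lower than the common estimate for these libraries. That trial does not show how the fits behave at the real spread. The pairing check gave correlations of the 4 differences from 0.145 to 0.316, all above 0.1, so the numbers were treated as pairing libraries. Leaving out 1 library leaves its partner without information on the number, so it removes that population from the comparison. Genes named are the 12 largest called rises and falls with regular symbols, at least 10 CPM in the higher number and 1 direction in all 4 populations, up to 4 of each list by adjusted p, and the 4 largest interactions at 10 CPM; others are said to be named after their values were seen. The gene lists and the comparison itself were chosen with earlier results of these data known. No sequence or coordinate is given, as no genome or annotation of the files' build was used here; neighbouring and overlapping genes come from RefSeq on NHGRI_mPanTro3-v2.0, in which 45.9% of tested symbols were found. Some results are not reported here.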

Additional observations from a re-analysis of the deposited data

Results flagged for a closer look

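In 7 of the 235 genes examined, 1 population's difference between replicate 1 and replicate 2 lay far from those of the other 3; chance flags about 1 in 20 such groups. EMX2, a cortical patterning factor, differed by 2.14 in N, where it was at 119 CPM in replicate 1 and 26.7 CPM in replicate 2, and by 0.563, 0.628 and 0.711 in aRG, bRG and bIP. SLC1A3 fell least in N, at -1.06, where both libraries were low, against -3.10, -2.89 and -3.09. RPL39 was at 1.73 in N against 1.03, 1.13 and 1.04. BOC, a hedgehog co-receptor, was at -0.744 in N against -0.363, -0.407 and -0.393. GFAP, a glial filament, was at -0.546 in bIP against 0.859, 1.01 and 0.837 in aRG, bRG and N. IFITM2 was at -0.323 in aRG against -1.22, -1.14 and -1.15, and HOXD3 at 0.79 in bRG against -1.20, -1.54 and -1.40 in aRG, bIP and N; both genes were at low levels in every library.

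In 4 genes the replicate difference in radial glia was set apart from that in committed cells by the interaction test of edgeR: PLA2G3 by -4.35, STRA6 by -3.88, KIAA1755 by -3.55 and SULF2 by -2.95. KIAA1755 was at 5.94 and 5.45 CPM in replicate 1 aRG and bRG and at 9.61 and 6.36 CPM in replicate 2, but at 50.8 and 26.9 CPM in replicate 1 bIP and N and at 9.01 and 1.99 CPM in replicate 2.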

How the results depend on the processing

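Without the population block 0 genes were called, 0 higher and 0 lower in replicate 1, with 2181 at an unadjusted p below 0.05. DESeq2 called 2015 (876 higher, 1139 lower) and 212 interactions; with no low-count filter edgeR called 1673 (696 higher, 977 lower) and 293 interactions, and where 2 libraries had to reach 5 CPM it called 964 (409 higher, 555 lower). Library totals in place of TMM gave 275 higher and 416 lower genes and 20 interactions, and shared symbols 378 lower genes. hg38 gave 843 calls (413 higher, 430 lower), 3 interactions and 22 genes higher by at least 1 in all 4 populations. That last count was 80 higher and 99 lower with 0.1 CPM added, 31 lower with 1 CPM added, 29 higher and 29 lower at a mean of at least 5 CPM, and 269 higher and 283 lower at a minimum difference of 1.5-fold. At 5 CPM the lowest and highest r were 0.266 and 0.533, and with no minimum the highest was 0.203. Leaving out 1 library or 1 population gave 65 to 637 calls (37 to 277 higher, 28 to 360 lower), 54 to 638 interactions, 3959 to 4470 genes higher and 4006 to 4675 lower in every remaining population, 96 to 124 higher and 121 to 147 lower by at least 1, a highest r of 0.212 to 0.321 and a lowest r of 0.148 to 0.203. Requiring 3 populations in place of 4 raises the counts of shared direction by construction; otherwise the cause was not tested. No named gene past the threshold changed sign under these settings; some that were not called did, such as VEGFA, STRA6 and PLA2G3 in the difference between numbers when 1 library was left out. Depth covers counting error only, and 1 library per population and number allows no test within a population.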
